A study of Mus musculus with 4 samples.

Results

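The genes described here encode the neuregulins and the ErbB receptors, 8 genes in all out of 21774 protein-coding genes of the mouse: the ligand genes Nrg1, Nrg2, Nrg3 and Nrg4 and the receptor genes Egfr, Erbb2, Erbb3 and Erbb4. They were chosen by name, and every CTCF peak whose summit lay inside one of them or within 50 kb of its bounds was taken, 42 peaks out of 33815 on the assembled chromosomes. CTCF, a DNA-binding protein with zinc fingers, anchors chromatin loops together with cohesin. It was mapped by chromatin immunoprecipitation and sequencing in primary cortical neurons of wild-type Swiss-Webster mice, taken at embryonic day 16, and grown for 13 days, as part of work on the topoisomerase TOP2B. There were 2 immunoprecipitations, labelled biological replicates, and 2 inputs. The treatment label of all 4 samples is none, and although the shared growth notes also describe the topoisomerase poison etoposide, no label ties it to these samples. The deposited file is 1 joint list, and each peak in it was seen in both replicates and passed a limit of 0.05 on the irreproducible discovery rate (IDR), a measure of how well replicates rank a peak alike. The list holds no expression values, so the labelled cell type was not checked against marker genes, and no level of any neuregulin or receptor was measured. Cultures of this kind can hold other cells besides neurons, and the list does not tell their peaks apart.

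Neuregulins are growth factors with an EGF-like domain, made mostly as membrane proteins and released by proteases. They bind ErbB3 and ErbB4, receptor tyrosine kinases that pair with each other or with ErbB2. ErbB2 has no known ligand of its own and ErbB3 has a weak kinase, so each depends on its partner, while Egfr binds EGF and its relatives instead. In cortex, ErbB4 is best known on inhibitory interneurons, where neuregulin signalling shapes the synapses they receive. Nrg1 and ErbB3 are also known from myelinating glia.

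Promoter windows, from 250 bases before to 50 after a transcript start, were taken from RefSeq (GRCm38.p6), which held 5 of the 8 genes: Nrg3, Nrg4, Egfr, Erbb2 and Erbb4. Only the Nrg3 window lay under a peak. Below it stands the window of Erbb4, a gene of nearly the same length whose window carried no peak. Then come 2 of the neighbour windows that lay under peaks counted near a member, Mien1 beside Erbb2 and Fbxo22 beside Nrg4. Each is written 5′ to 3′ on the strand of its gene, at chr14:39473039-39473338 (minus strand), chr1:69108010-69108309 (minus), chr11:98438939-98439238 (minus) and chr9:55208685-55208984 (plus). Capitals mark the letters AGNNGGC on either strand, a core of the CTCF motif.
Nrg3: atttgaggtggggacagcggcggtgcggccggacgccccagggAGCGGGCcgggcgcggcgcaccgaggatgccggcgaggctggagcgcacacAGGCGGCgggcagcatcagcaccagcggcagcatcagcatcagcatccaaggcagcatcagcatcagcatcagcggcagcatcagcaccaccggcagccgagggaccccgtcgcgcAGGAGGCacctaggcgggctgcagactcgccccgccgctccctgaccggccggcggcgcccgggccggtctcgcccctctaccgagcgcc
Erbb4: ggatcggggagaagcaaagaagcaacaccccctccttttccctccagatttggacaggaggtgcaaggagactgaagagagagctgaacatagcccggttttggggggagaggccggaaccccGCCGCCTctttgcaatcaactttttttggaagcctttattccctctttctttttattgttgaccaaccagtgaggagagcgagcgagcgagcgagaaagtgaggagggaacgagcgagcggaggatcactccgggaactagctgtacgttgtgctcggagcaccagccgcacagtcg
Mien1: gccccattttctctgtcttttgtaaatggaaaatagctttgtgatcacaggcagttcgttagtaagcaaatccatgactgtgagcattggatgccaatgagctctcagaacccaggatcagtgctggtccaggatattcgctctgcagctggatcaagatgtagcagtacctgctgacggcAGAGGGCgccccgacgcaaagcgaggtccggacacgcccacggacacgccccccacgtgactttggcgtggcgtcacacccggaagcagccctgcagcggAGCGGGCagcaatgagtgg
Fbxo22: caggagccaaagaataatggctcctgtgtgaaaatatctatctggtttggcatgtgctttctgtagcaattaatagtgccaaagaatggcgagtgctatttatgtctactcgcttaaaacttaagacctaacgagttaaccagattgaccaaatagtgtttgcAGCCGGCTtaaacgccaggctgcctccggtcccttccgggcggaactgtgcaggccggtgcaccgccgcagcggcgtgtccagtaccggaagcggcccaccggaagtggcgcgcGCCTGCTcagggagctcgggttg

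The core is common: 59.8% of 32851 promoter windows held it, and it was added after the sequences were seen. A longer pattern, CC, any 3 bases, AG, any 2 bases and GGC, was held by 8.61% of windows. Among the windows printed here only Fbxo22 held it, at bases 278 to 289 on the opposite strand, and a stricter form with CCA and 2 free bases (2.43% of windows) was in none of the 4. The Nrg3 and Fbxo22 windows held 3 core matches each, 2 of them overlapping in Fbxo22, the Mien1 window 2 and the Erbb4 window 1. The windows of Esyt1, Zc3h10 and Rps26 near Erbb3, not printed, also lay wholly or partly under peaks. Esyt1 and Rps26 held 0 core matches, and Zc3h10 held 2 and the longer pattern. The Egfr, Erbb2 and Nrg4 windows, under no peak, held 1 each. The Nrg3 window was 74.3% G and C and the Erbb4 window 55.3%, against a median of 52.7% over all windows. Matches describe these letters in these windows alone.

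The 42 peaks were spread unevenly. Inside the 8 genes lay 17 summits and outside, within 50 kb, 25. A summit lay inside 5 of the 8 genes, Nrg1, Nrg2, Nrg3, Egfr and Erbb4, against 44.6% of all protein-coding genes. These 5 were the members of 100 kb or more, and the share depends on length. It was 43.5% at 10 to 30 kb, 65.4% at 30 to 100 kb, 86.5% at 100 to 300 kb and 94.8% at 300 kb or more. All 8 had at least 1 summit outside within 50 kb, as did 78.4% of all protein-coding genes. A summit within 1 kb of an end was found at 4 of the 8 (exact Clopper-Pearson 95% interval 15.7 to 84.3%), against 29.2% of all protein-coding genes. Those 4 were the ligand genes Nrg2 and Nrg3 and the receptor genes Egfr and Erbb3. The share with an end peak also rose with length over the classes that hold members. It was 29.6% at 10 to 30 kb, 33.7% at 30 to 100 kb, 41.8% at 100 to 300 kb and 47.8% at 300 kb or more. At the 1 kb bound, Erbb3 (857 bp) and Egfr (858 bp) stood just inside, and Erbb2 (1318 bp) and Erbb4 (1958 bp) just outside. At the 50 kb bound, a peak 49.3 kb below Nrg2 was counted and one 54.1 kb above Egfr was not. With 8 genes, these shares were too imprecise to set apart from the background. Ends are called lower and upper by coordinate, since the gene table gives no strand.

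**Figure D1:**
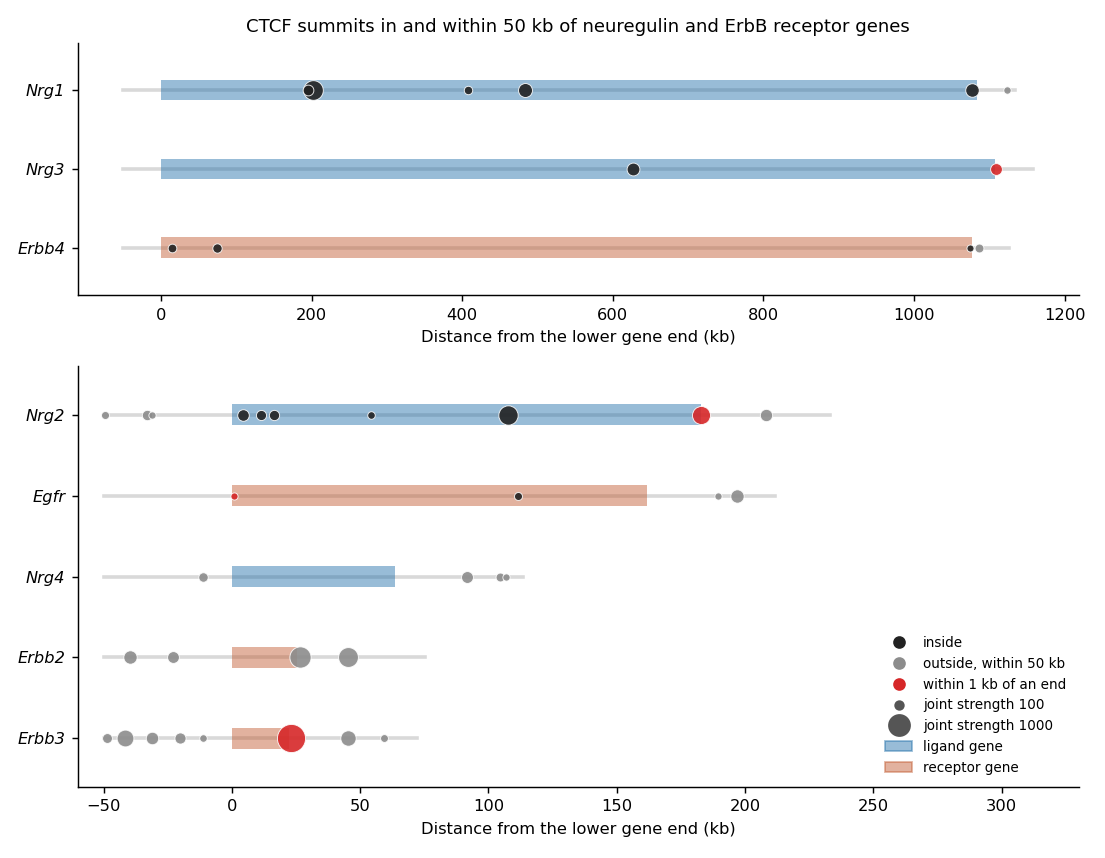
CTCF summits along the 8 genes, with distance from the lower gene end in kb on the horizontal axis. Bars are genes, grey lines the 50 kb on either side, and the area of a point grows with joint strength. Nrg1, Nrg3 and Erbb4 hold 5, 1 and 3 summits over more than 1 Mb each, while Nrg2 holds 6 in 183 kb, and the summits of Erbb2 and Erbb3 all lie outside the genes.

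Nrg1 encodes the best studied neuregulin, with many isoforms. It lies on chromosome 8 from 31807452 to 32891609 (mm10), 1084 kb, and held 5 summits, 0.46 per 100 kb (exact Poisson 95% interval 0.15 to 1.08, counting error only). From the lower end they stood at 195.5, 201.2, 407.9, 482.8 and 1076.5 kb. The authors' list gives each peak a −log10 p from either replicate, and their sum, also deposited, is called its strength here. The first column read 32.5, 409, 12.2, 57.1 and 195, the second 170, 457, 82.1, 341 and 172, and the strengths were 203, 866, 94.3, 398 and 367. The second of these, at 32008044 to 32009969, was stronger than 96.9% of the list and was high in both columns. It was the strongest peak inside any of the 8 genes. Neither end of Nrg1 had a summit within 1 kb. The nearest to an end was the fifth, 7.66 kb below the upper end and inside the non-coding gene Gm51527, with 195 and 172 in the columns. Outside Nrg1 there was 1 summit within 50 kb, 39.0 kb above it in the predicted gene Gm3985, and it was weak (strength 54.4).

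Nrg3 encodes a neuregulin that binds ErbB4 and is found mainly in the nervous system. It lies on chromosome 14 from 38365102 to 39473235 and, at 1108 kb, was the longest of the 8. It held 1 summit, 626.9 kb from the lower end, at 38991288 to 38992712, with 35.1 and 286 in the columns and a strength of 321. Its density of 0.09 per 100 kb (Poisson interval 0.0023 to 0.50) was the lowest of the 5 genes that held a summit. That interval reaches the pooled density of 0.50 for the 59 genes of 1 Mb or more, though not the 0.84 of all genes of 300 kb or more. The other Nrg3 peak was at its upper end, with the summit 405 bp outside the bound, and it was the widest of the 42 at 3424 bp (39471100 to 39474523). It spanned the whole promoter window printed above, with its summit 552 bp before that start, inside the non-coding gene LOC432842, and had 106.1 and 154 in the columns (strength 260). So the 2 peaks of this gene were of similar joint strength, but the inner one took most of it from the second column.

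Erbb4 encodes the receptor that can bind every neuregulin. It lies on chromosome 1 from 68031884 to 69108576 (1077 kb). It held 3 summits, 0.28 per 100 kb (Poisson interval 0.057 to 0.81), at 14.8, 74.8 and 1074.7 kb from the lower end. Their strengths were 105, 133 and 41.9. The first 2 had 8.82 and 13.4 in the first column against 95.8 and 120 in the second. The third, 1.96 kb inside the upper end, near which the printed promoter lies, had 22.9 and 18.997 and was the weakest of the 42 peaks, stronger than 4.26% of the list. One more, 10.2 kb above the gene, had a strength of 113. All 4 Erbb4 peaks were thus below the list median of 166, whereas 4 of the 5 inside Nrg1 were above it.

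These 3 genes were of almost equal length and among the 50 longest protein-coding genes. Their counts of 5, 1 and 3 have Poisson intervals of 1.62 to 11.7, 0.025 to 5.57 and 0.62 to 8.77, which overlap, so no order among them was resolved. The 59 protein-coding genes of 1 Mb or more had a median of 6 summits inside, from 1 to 17. Of the other 58, 52 held more than Nrg3, 41 more than Erbb4 and 32 more than Nrg1. Nrg3 shared its count of 1 with 6 of them. Among all 557 genes of 300 kb or more, 84.0% held more summits than Nrg3, 54.4% more than Erbb4 and 32.0% more than Nrg1. At the pooled density of that class, 0.84 per 100 kb, genes of these lengths would hold 9.26 (Nrg3), 9.0 (Erbb4) and 9.06 (Nrg1). At the 0.50 per 100 kb of the 59 genes of 1 Mb or more, which are closer in length, they would hold 5.57, 5.41 and 5.45. The 5 of Nrg1 is near that value, and the Poisson intervals of Erbb4 and, at its upper limit, Nrg3 reach theirs.

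**Figure D2:**
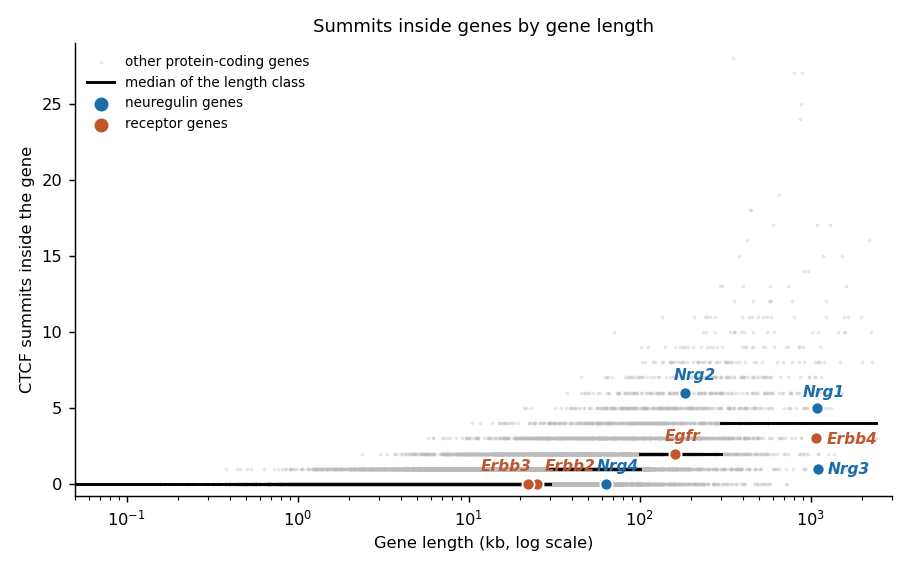
Number of CTCF summits inside each protein-coding gene against gene length in kb (log scale). Grey points are genes, black lines the median of each length class, and coloured points the 8 genes. Nrg2 with 6 stands above its class median of 2, Egfr on it, and Nrg3 with 1 and Erbb4 with 3 below the median of 4.

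Where the summits fell left long stretches without any. In Erbb4 no summit lay between 74.8 and 1074.7 kb, a gap of 999.96 kb that covered 92.9% of the gene. Among 33794 gaps between neighbouring summits of the list it ranked 249, and 99.3% were shorter (median 26.8 kb). In Nrg3 a gap of 1042 kb began 415 kb below the gene and reached the inner summit, so that 626.9 kb of it, 56.6% of the gene, lay inside. A second gap of 482 kb then ran from there to the upper-end peak. In Nrg1 the largest gap was 594 kb, from 482.8 to 1076.5 kb, 54.8% of the gene. Long genes have room for long gaps, so these were set beside the longest summit-free stretch of each of the 59 genes of 1 Mb or more, whose median was 571 kb or 44.5% of the gene. As a share of the gene, Erbb4 ranked 5, Nrg3 21 and Nrg1 23 of 59. By length in kb, Erbb4 ranked 10, Nrg3 26 and Nrg1 29. No other protein-coding gene lay in the Erbb4 stretch.

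**Figure D3:**
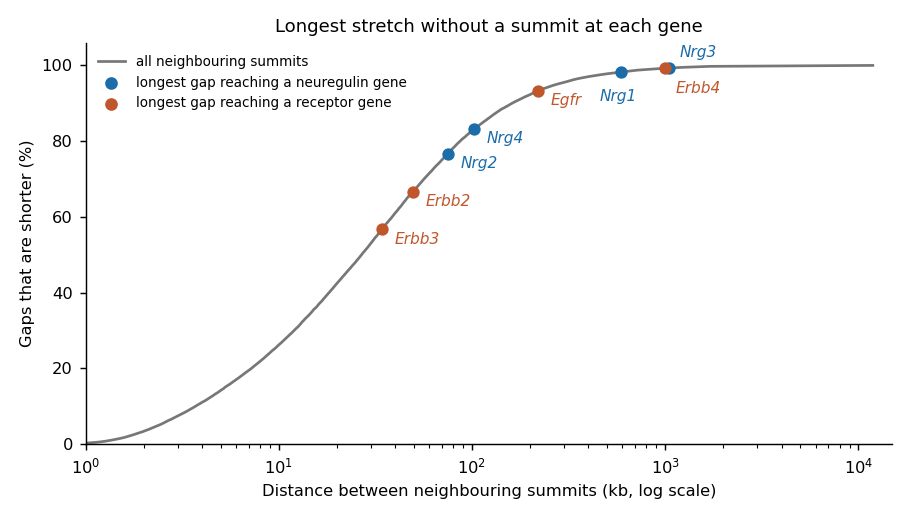
Share of all gaps between neighbouring summits that are shorter than a given length (grey curve, log scale in kb), with the longest gap that reaches each of the 8 genes. The gaps at Nrg3 (1042 kb), Erbb4 (999.96 kb) and Nrg1 (594 kb) lie at the far end, where 98.3% or more of all gaps are shorter, and the one at Erbb3 (34.2 kb) near the middle.

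Nrg2, a ligand gene expressed in neurons, was the most densely occupied of the 8. It spans 183 kb of chromosome 18, from 36014581 to 36197532, and held 6 summits, 3.28 per 100 kb (Poisson interval 1.20 to 7.14). In its class of 1870 genes of 100 to 300 kb, 5.13% held more. The pooled density of the class was 1.56, which lies inside the interval of Nrg2. The 6 summits stood at 4.23, 11.1, 16.6, 54.0, 107.7 and 182.8 kb from the lower end, with strengths of 248, 172, 178, 59.8, 836 and 716. In the first column the lower 4 read 52.2, 27.8, 22.3 and 24.1 and in the second 196, 144, 156 and 35.7. The strong pair was thus in the upper part of the gene. The peak at 36121646 to 36122954 had 239 and 597 in the columns, and the one at 36195692 to 36198149, with its summit 113 bp inside the upper end, had 311 and 405. Within 50 kb lay 4 more, of which the 3 below were inside Psd2, a neighbour whose bounds overlap the lower end of Nrg2, and the 1 above, 25.2 kb away, was between genes (strength 292).

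Egfr, the receptor of EGF and its relatives, is close to Nrg2 in length (162 kb, chromosome 11 from 16752203 to 16913907) and held 2 summits, the median of the same class. Its density of 1.24 per 100 kb has a Poisson interval of 0.15 to 4.47, which overlaps that of Nrg2. Both were weak. The peak 858 bp inside the lower end, which is the promoter side by the RefSeq strand, had 27.2 and 18.6 in the columns (strength 45.9), and the one at 111.6 kb had 8.82 and 67.6 (strength 76.4). Their −log10 IDR values of 1.48 and 1.53 were near the limit of the list, and neither passed an IDR of 0.01. The end peak did not reach the promoter window. Above the gene, 2 summits lay inside the non-coding gene Eldr, and the farther one, 2.24 kb from the end of Fbxo48, was stronger (357).

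Nrg4, whose product is best known as a ligand of ErbB4 secreted by fat, spans 63.4 kb of chromosome 9 (55220222 to 55283654) and held no summit, which allows a density of up to 5.82 per 100 kb (upper Poisson bound). In its class of 30 to 100 kb, 65.4% of genes held at least 1. Around it lay 4 summits, and 2 of them were at ends of neighbours. The one 11.1 kb below stood 145 bp inside Fbxo22, an F-box gene, and covered 225 bases of the window printed above (80.1 and 60.0 in the columns, strength 140). The one 43.4 kb above stood 150 bp inside Tmem266 (27.5 and 22.6, strength 50.0). The strongest of the 4, 28.1 kb above at 55311349 to 55312508, was between genes (30.6 and 235, strength 265), as was the last, 41.0 kb above (strength 114). The 4 differed in balance, with the first column higher at both neighbour ends and the second higher at both others.

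Erbb2 and Erbb3 are the short members, 25.2 kb on chromosome 11 (98412484 to 98437716) and 22.1 kb on chromosome 10 (128567523 to 128589635), and neither held a summit. In their class of 10 to 30 kb, 43.5% of genes did. Both had strong peaks just beyond the upper end. The Erbb3 peak at 128588897 to 128591079, 857 bp outside the bound, had 778 and 1085 in the columns. Its strength of 1863 was the highest of the 42 peaks and ranked 49 in the whole list. The Erbb2 peak at 98438419 to 98439793, 1318 bp beyond the 3′ end, had 455 and 573 (strength 1028). It spanned the whole Mien1 promoter window printed above, with its summit 46 bp before that transcript start of Mien1, the next gene along. By its full bounds Mien1 reaches well beyond this start, and the summit lies inside it, 1326 bp from its nearest end. Below Erbb2 lay 2 more, both inside neighbours: 39.9 kb away in Stard3 (strength 359) and 22.9 kb away in Pgap3, 936 bp from its end (strength 260). The other strong peak near Erbb2, 20.1 kb above it, was 432 bp inside the far end of those bounds (316 and 564, strength 881).

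Around Erbb3 lay 8 summits within 50 kb, more than around 94.7% of protein-coding genes (median 2). Around Nrg2, Nrg4 and Erbb2 lay 4 each, around Egfr 2, and around Nrg1, Nrg3 and Erbb4 1 each. The number of other protein-coding genes within 50 kb was 7 at Erbb2, 6 at Erbb3, 3 at Nrg4, 1 each at Nrg1, Nrg2, Nrg3 and Egfr, and 0 at Erbb4. The orders matched in part (rho = 0.77 over 8 genes): Erbb2 had the most neighbours but 4 summits, and Nrg2 had as many summits with 1 neighbour. Of the 25 outside summits, 13 were inside another protein-coding gene, 7 were within 1 kb of an end of one, and 14 were either. Over the whole list 54.7% of summits were inside a protein-coding gene, 18.03% were within 1 kb of an end and 61.6% were either. The 14 of 25 were near the last share, and the 7 of 25 above the share at ends. The sets are unlike, since the 25 lie outside a member and were scored against other genes only. The list shares count every summit against any gene, and no difference was tested. Near Erbb3 the 14 included a peak 51 bp from an end of Esyt1 (313 and 301, strength 614), one 894 bp inside Zc3h10 (strength 224) and one 414 bp beyond the ribosomal protein gene Rps26 (strength 70.0). The remaining 4, at 48.6, 31.1 and 11.3 kb below and 23.2 kb above, had strengths of 157, 303, 59.3 and 501. All 8 Erbb3 peaks thus ranged from 59.3 to 1863. Outside peaks were assigned to a neuregulin or receptor gene by distance alone.

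Across the 8 genes the inside count rose with length, with a Spearman rho of 0.66 over 8 genes, and the outside count went the other way (rho = −0.90). Both are descriptions across genes that share 1 list, and across all 21774 genes the inside count had a rho of 0.56. The median outside count of all protein-coding genes also fell with length over the classes that hold members. It was 3 at 10 to 30 kb, 2 at 30 to 100 and at 100 to 300 kb, and 1 at 300 kb or more. Genes under 10 kb had a median of 2. Within the 8 the inside relation was far from even, since Nrg2 held the most at 183 kb and Nrg3 held 1 at 1108 kb.

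Ligands and receptors were then set side by side. The 4 neuregulin genes held 12 summits in 2439 kb, 0.49 per 100 kb (Poisson interval 0.25 to 0.86), and the 4 receptor genes 5 in 1286 kb, 0.39 per 100 kb (0.13 to 0.91). The difference of 0.10 per 100 kb had an interval of −0.47 to 0.55, so none was resolved. It turned to −0.12 without Nrg2 and to −0.46 without Erbb4, so even its direction rested on single genes. Outside, receptors had 15 (8.4 to 24.7) and ligands 10 (4.80 to 18.4), with 8 of the 15 at Erbb3. End peaks were found at 2 of 4 ligand and 2 of 4 receptor genes.

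**Figure D4:**
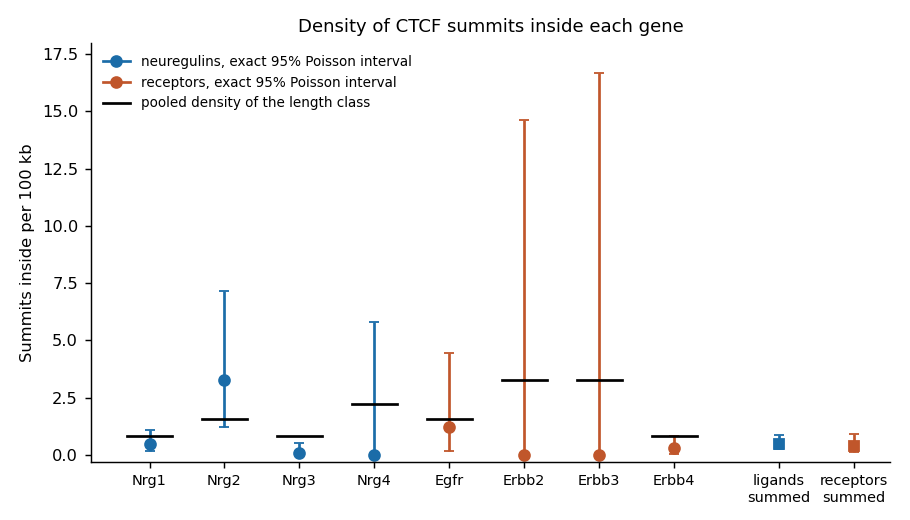
CTCF summits inside each gene per 100 kb of gene length, with exact 95% Poisson intervals, and the sums over the 4 ligand and the 4 receptor genes. Black lines give the pooled density of each gene's length class. Nrg2 at 3.28 lies above its class line of 1.56, but its interval of 1.20 to 7.14 holds that line. The intervals of Nrg3 and Erbb4 end at 0.50 and 0.81, below their line of 0.84 for genes of 300 kb or more. Both hold the 0.50 of genes of 1 Mb or more. The intervals of the summed groups, at 0.49 and 0.39, overlap.

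The inside peaks of the 2 groups were also set side by side by strength. Of the 12 inside ligand genes, 10 were above the list median of 166 (their median 285, from 59.8 to 866). Of the 5 inside receptor genes, none was, and the highest was 133 (median 76.4). These inside values come from 3 ligand and 2 receptor genes. Of the ligand peaks, 5 were in Nrg1, 6 in Nrg2 and 1 in Nrg3. Of the receptor peaks, 2 were in Egfr and 3 in Erbb4. Outside, the order of the medians was reversed, at 127 around the 4 ligand and 303 around the 4 receptor genes. No test was made across them. At an IDR of 0.01 all 12 inside ligand peaks and 1 of the 5 inside receptor peaks were kept. Of the whole list, 26171 of 33815 peaks were kept at that limit.

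Both replicate columns were read at every peak. The second column was higher at 90.7% of all peaks, with a median of 129 against 30.9 in the first. Among the 42 peaks it was higher at 35. The 7 exceptions were the fifth Nrg1 peak, the Egfr and Erbb4 peaks just inside the promoter side, the lowest peak of the Nrg2 region at Psd2, and the peaks at Fbxo22, Tmem266 and Esyt1. Of these 7, 6 lay within 2 kb of an end of a protein-coding gene, against 9 of the other 35. The bound of 2 kb was set after the values were seen, with the Erbb4 peak at 1.958 kb. Over the whole list the shares were 66.8% of 3132 peaks with the first column higher and 20.5% of 30683 with the second higher, so the contrast was one of the whole list. The list does not tell how deep either library was, so the part of depth in the level of either column was not tested.

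**Figure D5:**
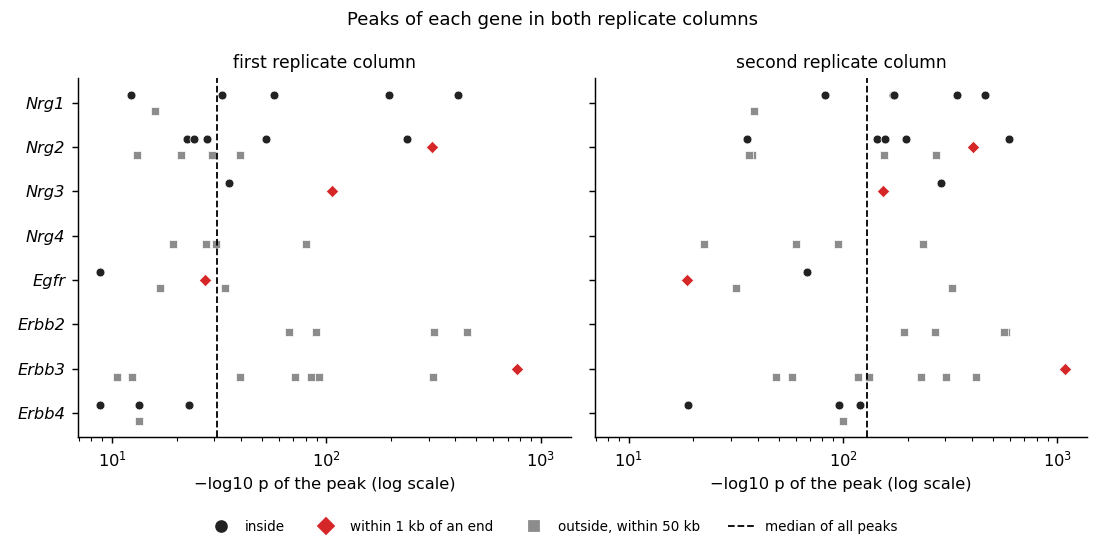
The −log10 p (log scale) of each of the 42 peaks in the first (left) and second (right) replicate column, by gene, with the median of all peaks of the list as a dashed line. Erbb3's end peak (778 and 1085) is the rightmost point in both panels, and all 4 Erbb4 peaks are left of the line in both.

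Genes with the same counts and nearest length were looked up for the members of 100 kb or more. For Nrg1 (5 inside, no end peak) they were Lrmda (1037 kb) and Agbl4 (1267 kb), and for Nrg3 (1 inside, 1 end) Il1rapl2 (1278 kb) and Grm7 (922 kb). For Erbb4 (3 inside, no end peak) they were Cdh12 (1150 kb) and Pcdh9 (879 kb). Nrg2 (6 inside, 1 end) was nearest to Rps6ka5 (177 kb) and Cux2 (192 kb), though 11 summits flanked Cux2 against 4 for Nrg2. For Egfr they were Lrp2 and Nwd2, within 0.26 kb of its length.

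The other genes of the pathway were counted in the same way, 45 in all. An end peak was found at 23 (51.1%, against 29.2% of all protein-coding genes), a summit inside at 31 (68.9% against 44.6%) and one outside within 50 kb at 40 (88.9% against 78.4%). Their median length was 64.1 kb. In the class of 30 to 100 kb 33.7% of genes had an end peak and 65.4% a summit inside. The inside share of the list was thus near that of genes of like length. Its end share was above that of the class, but no interval was made for it. The list was chosen with earlier results of these data known, and the difference was not tested. Of the 7 other ligand genes 5 had an end peak, the strongest at Tgfa, an Egfr ligand (322 and 361, strength 683). Those of Hbegf (142), Btc (128), Areg (57.6) and Ereg (42.9) were below the list median of 166. Egf held the most inside, 4. Of the 4 protease genes that can shed such ligands, 2 had an end peak, led by Adam17 (strength 517), while Adam19 held 2 inside. Of 9 adaptor genes 5 had an end peak, the strongest at Nck1 (1005), and Sos1 and Gab1 held 4 inside each. Of 17 kinase and effector genes 8 had an end peak, led by the MAP kinase kinase gene Map2k1 (715). The weakest end peak of the 23 pathway genes, at Braf (34.4), was also in this role. Pik3r1, a PI3-kinase subunit gene, held 5 inside. Of 5 genes of negative regulators 3 had an end peak, led by the ubiquitin ligase gene Cbl (727). Cbl and Errfi1 held 2 inside each. None of the 3 scaffold genes had an end peak, and Magi2, at 1485 kb longer than any member, held 8 inside or 0.54 per 100 kb.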

How the data were processed

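CTCF ChIP-seq was done on 2 immunoprecipitations with 2 inputs, grouped by title. The submitters' processing notes name MACS2, BWA, FastQC, Trimmomatic and SAMtools, with GRCm38.p6 and mm10 as builds. Their roles, versions and thresholds are not stated in any source used here. The authors deposited 1 joint IDR list of 33820 peaks; its layout gives −log10 p values per replicate, made by the authors, whose sum is the joint strength. The deposited score, a rescaled IDR, was not used. No file ties a column to a labelled replicate, depth is unknown, and the inputs, set aside for normalization per the labels' protocols, have no values in the list. The 5 peaks off the assembled chromosomes were left out.

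A summit is the start plus the tenth column, printed 1-based. Genes came from RefSeq GRCm38.p6 without strand; 402 on scaffolds were left out, leaving 49595. Counts used windows of 1 kb at ends, gene bounds, and 50 kb outside. Intervals are exact Poisson or Clopper-Pearson at 95%, and the interval of the density difference combines the Poisson limits of both groups. With 1 list and no groups of samples to compare, no test was made. The 2 replicates serve the IDR, so no error between cultures stands beside a count.

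The members, pathway list and thresholds were chosen with earlier results of these data known. Named were all members, per pathway role the gene with the strongest end peak and with most summits inside, genes holding or nearest to outside peaks, and for members of 100 kb or more the 2 genes nearest in length with equal counts. The comparison with genes of 1 Mb or more, the shorter motif and the 2 kb count were added after values were seen. Alternatives were an IDR of 0.01, peaks above the median of the joint strength or of either column, any base of a peak, end windows of 500 bp and 5 kb, outside windows of 10 and 100 kb, and genes left out. The counting code was tested on simulated data, with 0 of its counts wrong for 200 genes. Calculations used scipy 1.17.1, pandas 2.3.3 and numpy 2.4.6 under Python 3.11.15, and figures matplotlib 3.10.9.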

Additional observations from a re-analysis of the deposited data

How the results depend on the processing

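The number of genes with an end peak was 4, and 3 to 5 at an IDR of 0.01, above each median or by any base of the peak. It was 2 with windows of 500 bp, where Egfr and Erbb3 dropped out, and 6 with 5 kb, where Erbb2 and Erbb4 came in. The share of all protein-coding genes moved as well, from 29.2% to 20.4% at 500 bp and 51.3% at 5 kb. It was 23.3% at an IDR of 0.01 and 36.1% by any base. Above the median of joint strength, first and second column it was 14.9, 21.1 and 13.1%. Keeping only peaks above a median shortens the list by construction: inside summits went from 17 to 10 by joint strength, 8 by the first column and 10 by the second, and outside summits from 25 to 14 each time. By each of these medians no receptor gene kept an inside peak, and Nrg1 kept 4. Outside windows of 10 kb held 3 summits over the 8 genes and of 100 kb 44. The mean over all protein-coding genes was 0.70 per gene at 10 kb and 5.25 at 100 kb, against 2.82 at the main 50 kb. The ligand minus receptor density of 0.10 per 100 kb lay between 0.066 and 0.44 in all other settings but 2: it was −0.12 without Nrg2 and −0.46 without Erbb4. The rho between inside count and length rose from 0.66 to 0.88 without Nrg1 and Nrg3 and lay between 0.63 and 0.74 otherwise. No paired analysis was possible because the deposited list joins both replicates, holds no input values and gives no comparison between groups; for the same reason neither replicate could be left out, and each column's median was used instead. Depth per library is unknown, so its part in weak peaks, such as the Egfr end peak and the Erbb4 peak near its upper end, was not tested.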
